A study of Mus musculus with 2 samples.

Results

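The 10 genes described here encode nuclear receptors that set the oxidative and circadian programmes of muscle, together with the PGC-1 coactivators that work with them. They are Ppargc1a, Ppargc1b, Esrra, Ppara, Ppard, Rxra, Rxrg, Thra, Nr1d1 and Nr4a1. They were chosen by gene symbol alone, as the rows of both transcript tables with one of these names, and all 10 had reads among the 15622 annotated genes detected. They held 64 of 69762 transcript models in replicate 1 and 60 of 65515 in replicate 2, with 492 and 3331 reads.

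The tissue was the gastrocnemius, a mainly fast-twitch muscle of the calf, of 25-day-old male F1 mice of strain B6CASTF1/J, a cross of C57BL/6J with the wild-derived strain CAST/EiJ. Total RNA was sequenced in long reads from 2 µg per library, with spike-in RNA added, and the series holds 1 group with 2 replicates. The libraries are labelled as biological replicates, with the same description and 1 donor record. They were taken as separate animals, although the description does not tie an animal to a library. No treatment, genotype or second condition is present. A test between the libraries therefore compares these 2 libraries and covers counting error only.

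PGC-1alpha and PGC-1beta do not bind DNA themselves. They dock on receptors such as ERRalpha (Esrra) and the PPARs and raise the transcription of genes for mitochondria and fatty acid oxidation. PPARs and the thyroid hormone receptor bind DNA as pairs with an RXR, whereas REV-ERBalpha (Nr1d1) is a repressor of the circadian clock and NUR77 (Nr4a1) is an immediate early gene product.

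Several genes carried transcripts that differ at their start or at a single splice site, and the junctions that tell them apart are shown first because the isoform results turn on them. Each line holds 30 bases from GENCODE M21 transcripts, 5′ to 3′, with the 15 bases before the junction in lower case and the 15 after it in capitals.
Ppargc1a exon 1a to exon 2: tggagtgacatagagTGTGCTGCTCTGGTT
Ppargc1a exon 1b to exon 2: gattcaattttgaaaTGTGCTGCTCTGGTT
Ppargc1a, short exon: cccagagtcaccaaaTGACCCCAAGGGTTC
Ppargc1a, long exon: cccagagtcaccaaaTTTGTTTTTATAAAT
Rxrg-201, from its second exon: ccacccagctcccagCTAAATGTGGTCAAC
Rxrg-202, from its internal first exon: ctcttgtcgtgacctCTAAATGTGGTCAAC
Thra, alpha2-type splice: aagctgctgatgaagGAGAGAGAAGTGCAG
Thra, alpha1-type read-through: aagctgctgatgaagGTGACTGACCTCCGC
Esrra, exon 2 included: ctgccggagcccaagGTGACCAGCACCATG
Esrra, exon 2 skipped: ctgccggagcccaagGGAGCATCGAGTACA
The capitals are the same within the first Ppargc1a pair and within the Rxrg pair, since either start is spliced to a shared exon. The line for the upstream Rxrg start shows the second exon of Rxrg-201 (left edge of the junction at 167613951), which follows its first exon. In the second Ppargc1a pair and in the Thra and Esrra pairs the lower-case part is shared and the following bases differ. The line for the skipped Esrra exon joins exon 1 and exon 3 of Esrra-201, which are not adjacent in that transcript, as the reads without exon 2 do.

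The unit of level is CPM, in which a gene's reads are divided by all reads on annotated genes (1215785 in replicate 1 and 1549606 in replicate 2) and multiplied by 1000000. Each long read is counted once whatever its length, so CPM is not divided by transcript length, although a long transcript is read to its 5′ end less often. For a gene with no read, levels of up to 2.47 CPM (replicate 1) or 1.94 CPM (replicate 2) remain possible. A multi-exon read is one on a model with 2 or more exons, which shows splicing and cannot be an unspliced fragment. Where genes overlap, as Nr1d1 and Thra do, it need not come from the gene it is counted for.

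**Figure D1:**
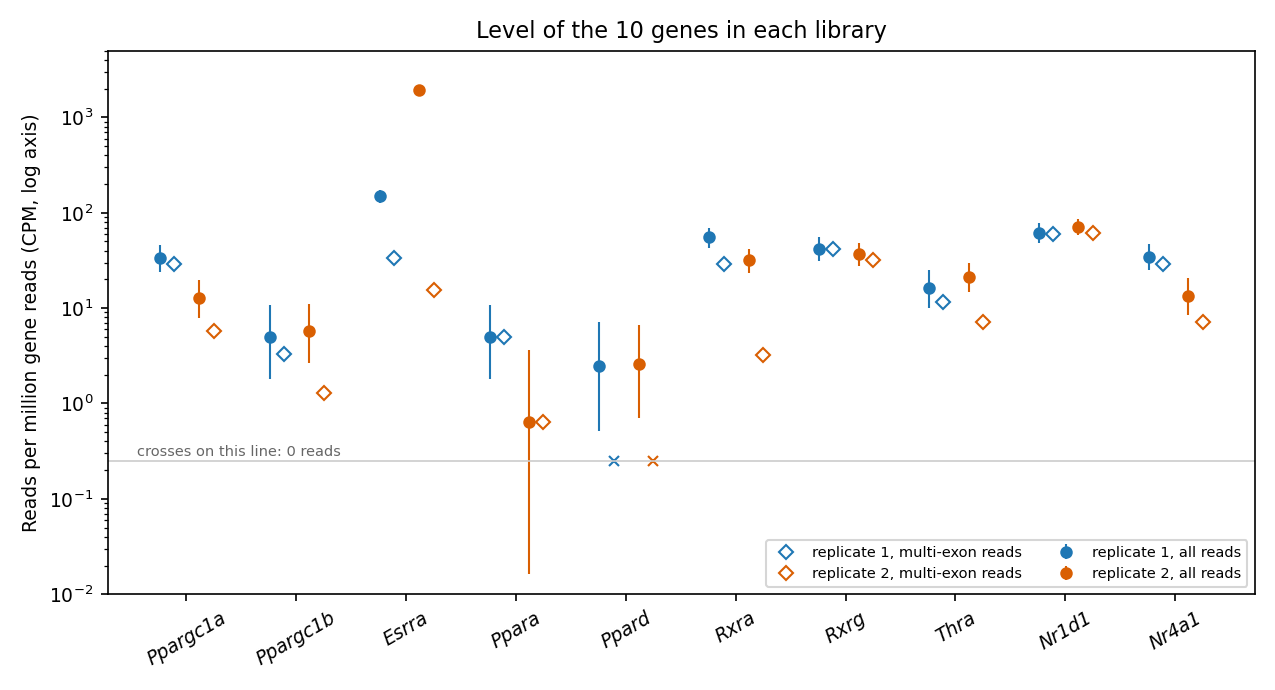
Level of each of the 10 genes in CPM (log axis) in replicate 1 (blue) and replicate 2 (orange). Filled circles are all reads with exact 95% counting intervals, open diamonds are multi-exon reads, and crosses mark 0 reads. Esrra stands highest by all reads and falls among the other genes by multi-exon reads.

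Counted over multi-exon reads, the order was led by Nr1d1 at 60.6 ± 1.93 CPM (SD, n = 2) and Rxrg at 36.8 ± 7.30 CPM. The Nr1d1 value includes short chains that lie mostly over Thra exons. Without models over opposite-strand exons Nr1d1 had 53.6 ± 5.58 CPM (57.6 in replicate 1 and 49.7 in replicate 2). Esrra followed Rxrg at 24.6 ± 12.9 CPM, and the 2 Esrra libraries overlapped those of Rxrg. Nr4a1 (17.9 ± 15.3 CPM), Ppargc1a (17.3 ± 16.2 CPM) and Rxra (16.0 ± 18.1 CPM) could not be ordered, since each spread over the range of the others. Thra had 9.31 ± 3.12 CPM, within the range of those 3 genes. Ppara (2.79 ± 3.03 CPM) and Ppargc1b (2.29 ± 1.41 CPM) lay at or near the limit that a count of 0 allows, and Ppard had no multi-exon read in either library. By all reads, Nr1d1 ranked 1499 of 15622 detected genes, Ppargc1a 3530 and Ppard 9514.

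Between the libraries, 3 of the 8 genes with 10 or more reads were lower in replicate 2 and 1 was higher, by a two-sided Fisher exact test with Benjamini-Hochberg adjustment over all 8692 genes tested and a threshold of 0.05. Over all genes tested the share called was 43.3%, with 17.0% higher and 26.3% lower, so the members' count is near the background. With TMM scaling the split over all genes turned from 1480 higher and 2286 lower to 1953 higher and 1600 lower, and the median log2 ratio of all genes moved from -0.27 to -0.02. Counted over multi-exon reads, 4 of 7 members were lower and none higher. Over 7407 genes 48.3% were called, 15.1% higher and 33.3% lower, and the median log2 ratio was -0.49. Multi-exon counts were not scaled by TMM. By a fixed coefficient of variation between replicates of 0.2 in edgeR's exact test, none of the 3 lower calls passed.

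**Figure D2:**
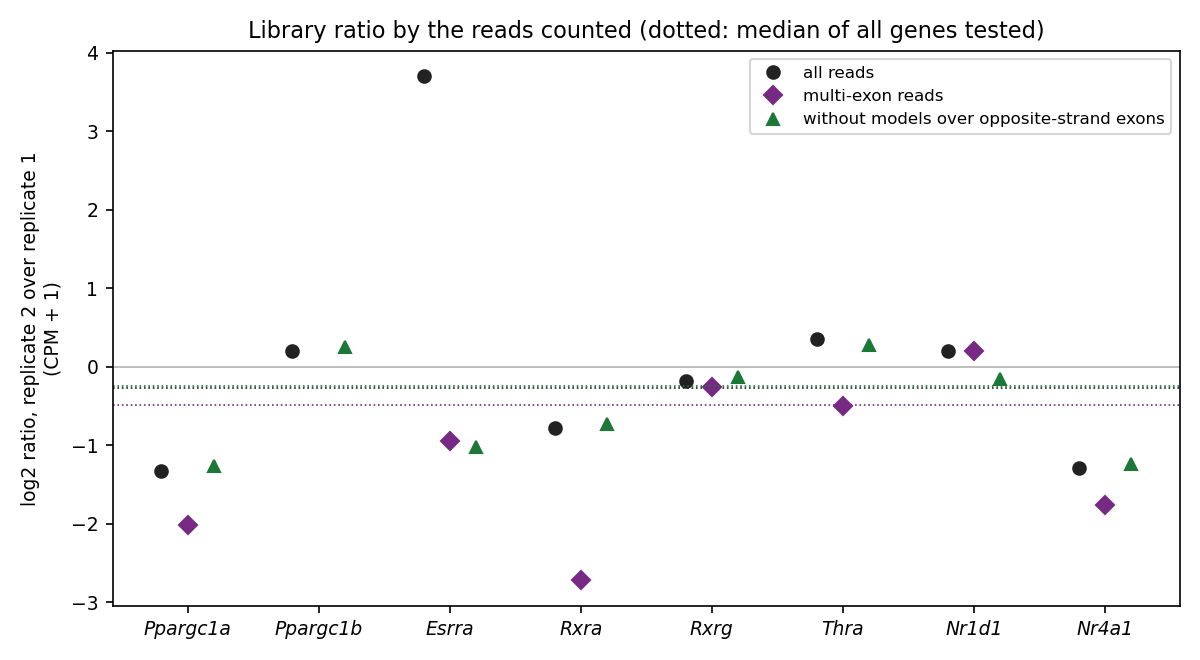
Log2 ratio of replicate 2 over replicate 1 (CPM + 1) for the 8 genes tested, from all reads, from multi-exon reads and without models over exons of the opposite strand. Dotted lines are the medians of all genes tested in each setting. Esrra moves from 3.70 by all reads to -0.94 by multi-exon reads, while Rxrg stays near the median; Ppargc1b has too few multi-exon reads for a test.

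The libraries differed in more than these genes. The fixed markers of fast fibres held 85850 CPM in replicate 1 and 101301 in replicate 2, with 3 of the 6 genes higher in replicate 2 and 3 lower (Myh4, Myh1 and Actn3). Slow fibre markers held 2354 and 7689 CPM, with 5 of 6 higher and Myh7 lower. Fibroblast markers held 4567 and 900 CPM, Schwann cell markers 149 and 505 CPM, erythroid markers 393.2 and 638 CPM and endothelial markers 110 and 58.1 CPM. Adipocyte markers held 21.4 and 19.4 CPM with Lep at 0 in both libraries, and macrophage markers 65.0 and 65.8 CPM with Cd68 at 0 in replicate 1. Smooth muscle and pericyte markers held 184 and 125 CPM, with 3 of 5 lower and 1 higher. Incomplete splice matches, which are parts of an annotated chain, and genomic models, which are unspliced or partly spliced reads over a gene, together took 11.6% of reads in replicate 1 and 22.5% in replicate 2. The part of these differences in the ratios given here was not tested. Genes of the fast fibre, slow fibre and smooth muscle lists went both ways, so these sums do not give the cell composition. In bulk RNA, fewer cells of a type and less RNA per cell cannot be told apart, and other differences between the libraries were not tested.

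**Figure D3:**
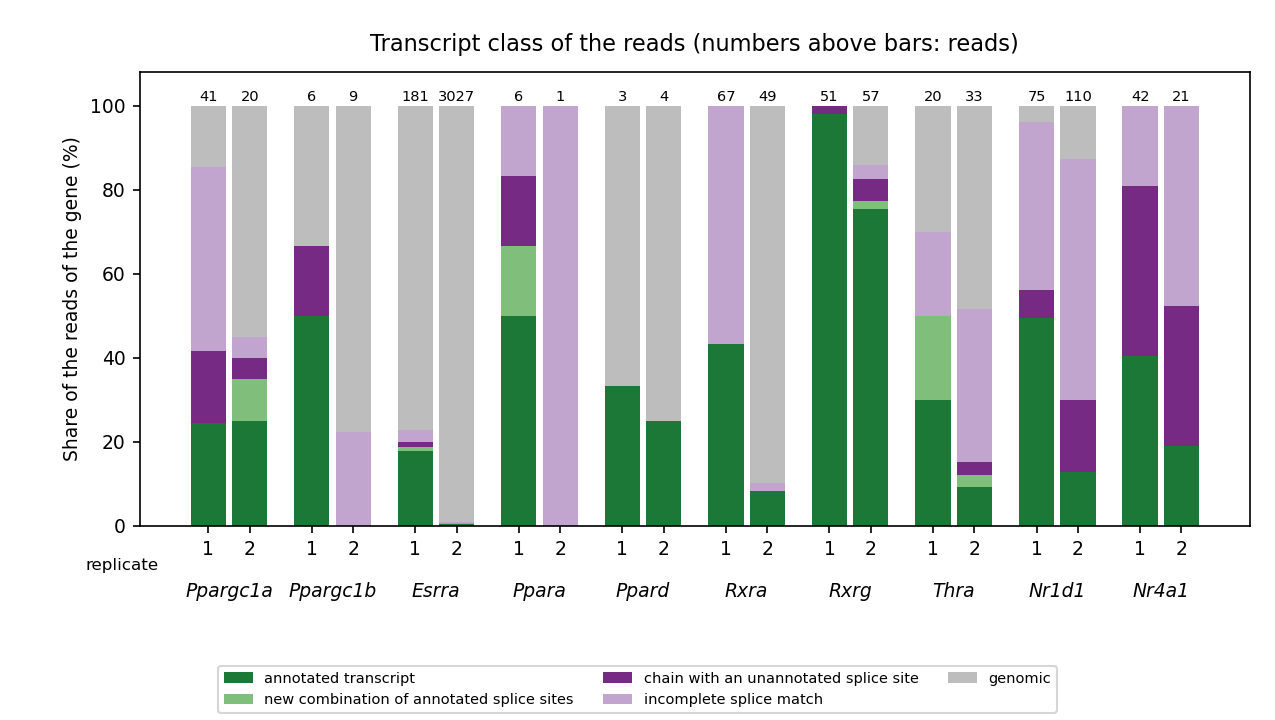
Share of the reads of each gene by transcript class in each replicate, with the number of reads above each bar. Rxrg is mostly annotated transcripts in both libraries, Esrra is mostly genomic in both, and the Rxra single-exon reads are classed as incomplete splice matches in replicate 1 and as genomic in replicate 2.

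Ppargc1a, the gene of PGC-1alpha (chromosome 5, 51454250 to 51567726, minus strand, mm10), gave 41 reads in the first library and 20 in the second, or 33.7 and 12.9 CPM. The counting intervals did not overlap, and the log2 ratio was -1.32 ± 0.39 (counting SE, Fisher exact adjusted p = 0.00158). Scaled by TMM the ratio was -1.04, still past the threshold, with adjusted p = 0.0142 by the same exact test. Multi-exon reads numbered 35 of 41 and 9 of 20, a share of 85.4% in replicate 1 and 45% in replicate 2. The rest of the reads were single-exon genomic models, 6 in replicate 1 and 11 in replicate 2, nearly all of them at the 3′ end of the gene.

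Reads that reached a first exon of Ppargc1a came from both of its 5′ ends. Exon 1a, the start of the canonical transcript Ppargc1a-203, had 9 reads in replicate 1 and 4 in replicate 2. An exon 13804 bases further upstream, known in muscle as exon 1b and linked there to exercise and adrenergic signalling, had 17 reads and 4 reads. The share of exon 1b was 65.4% in replicate 1 (95% Clopper-Pearson interval 44.3% to 82.8%) and 50% in replicate 2 (15.7% to 84.3%), a mean of 57.7 ± 10.9% (SD, n = 2). The intervals overlapped and both included equal use.

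Exon 1b was spliced from either of a pair of donor sites that lie 50 bases apart. The annotated donor at 51567630 was used by 12 reads in replicate 1 and 3 in replicate 2. The donor at 51567580, which M21 does not annotate, was used by 5 reads and 1 read, 29.4% (10.3% to 56.0%) and 25.0% (0.631% to 80.6%) of exon 1b reads. The full-length chain from the annotated donor, with 13 exons, had 9 reads in replicate 1 and 2 in replicate 2. That chain was classed as an incomplete splice match in replicate 1 and as a new combination of annotated splice sites in replicate 2, although its introns are identical. Counted over annotated transcripts only, exon 1b fell to a mean of 15%, since most of its reads lie on unannotated chains.

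A second splice choice in Ppargc1a lengthens one exon by 31 bases and is known from the truncated protein NT-PGC-1alpha, which lacks the C-terminal part. The long exon, annotated in Ppargc1a-204, had 1 read in replicate 1 and 2 in replicate 2. The short exon had 29 and 6 reads. The long form thus made up 3.33% (0.0844% to 17.2%) and 25.0% (3.19% to 65.1%) of the reads that crossed this exon, and the intervals overlapped. Ppargc1a-204 itself had 1 read in each library.

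The RefSeq window around the upstream start of Ppargc1a (GRCm38.p6, the assembly of mm10; chr5:51567676-51567975, minus strand) is shown because exon 1b carried as many reads as exon 1a or more. It covers 250 bases before the start and 50 from it, and capitals mark every match to 6 motifs searched on both strands.
Ppargc1a exon 1b window: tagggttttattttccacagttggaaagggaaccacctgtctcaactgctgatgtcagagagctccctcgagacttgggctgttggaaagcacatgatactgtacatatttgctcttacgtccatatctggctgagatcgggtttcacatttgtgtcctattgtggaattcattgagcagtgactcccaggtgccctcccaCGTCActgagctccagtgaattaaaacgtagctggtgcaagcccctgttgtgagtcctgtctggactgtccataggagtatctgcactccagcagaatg
The motifs were the nuclear receptor half-site AGGTCA, the E-box CACGTG, the cyclic AMP response element core TGACG, the GC box GGGCGG, the TATA box TATAAA and the MEF2 site. Overlapping matches of different motifs were joined in the capitals. The only match in this window was TGACG, read on the opposite strand, at -49 from the start. TGACG occurs in 20.8% of the 32851 RefSeq windows of this length, AGGTCA in 16.3%, CACGTG in 7.15%, GGGCGG in 35.7%, TATAAA in 13.6% and the MEF2 site in 3.19%. RefSeq windows were found for 8 of the 10 genes.

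Ppargc1b, the gene of PGC-1beta (chromosome 18, 61298136 to 61400431, minus strand), had 6 and 9 reads, or 4.94 and 5.81 CPM. The libraries overlapped, with a log2 ratio of 0.20 ± 0.76 and a Fisher exact adjusted p of 0.880. Full-length reads on Ppargc1b-202, which has 12 exons, numbered 3 in replicate 1 and 0 in replicate 2. In replicate 2, 7 of the 9 reads were single-exon genomic models, 5 of them within 61396396 to 61397059, and the other 2 were an incomplete chain of 8 exons. No sequence is shown for this gene.

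Esrra, the gene of ERRalpha (chromosome 19, 6910977 to 6921813, minus strand), gave 181 reads in the first library and 3027 in the second, or 149 and 1953 CPM. By this count it ranked 91 among detected genes and was higher in replicate 2 by 3.70 ± 0.11 (log2 ratio). Nearly all of that count sat on 1 model per library. This single-exon genomic model had 140 of 181 reads in replicate 1 and 3003 of 3027 in replicate 2. It lay from 6910977 to 6911049 in replicate 1 and from 6910834 to 6911049 in replicate 2, wholly over exons of Trmt112, the neighbour on the plus strand whose annotated end is also 6911049. The genes overlap by 73 bases. Trmt112, an adaptor of methyltransferases, had 24 and 44 reads of its own. The labels and file headers do not state whether assignment used the strand of a read, so reads of these 2 genes cannot be told apart here.

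Reads on spliced Esrra models numbered 41 in replicate 1 and 24 in replicate 2, or 33.7 and 15.5 CPM. By these reads the difference ran the other way: the log2 ratio was -0.94 among multi-exon reads (Fisher exact adjusted p = 0.0205) and -1.02 without models over opposite-strand exons (adjusted p = 0.0118). The medians of all genes tested in these settings were -0.49 and -0.25. Esrra-201, with 7 exons, was the leading spliced transcript with 32 and 14 reads. Its share of reads outside the incomplete and genomic classes was 88.9% (73.9% to 96.9%) and 77.8% (52.4% to 93.6%), not past the threshold (Fisher exact adjusted p = 1). Exon 2 of Esrra-201 (6920063 to 6920399) was skipped in 2 reads and included in 33 in replicate 1, and skipped in 3 and included in 15 in replicate 2. The skipped form was 5.71% (0.70% to 19.2%) and 16.7% (3.58% to 41.4%) of these reads. The leading chain without exon 2, a new combination of annotated splice sites with 6 exons, had 1 read in replicate 1 and 3 in replicate 2.

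The PPAR genes were near the limit of detection. Ppara, the receptor for fatty acids that governs their oxidation (chromosome 15, 85734983 to 85802819, plus strand), gave 6 reads in the first library and 1 in the second, or 4.94 and 0.645 CPM. Its intervals, 1.81 to 10.7 and 0.0163 to 3.60 CPM, overlapped, and it had too few reads for the test. Ppara-202 had 3 full-length reads in replicate 1 and 0 in replicate 2, and the single read in replicate 2 was an incomplete chain of 3 exons. In replicate 1, 2 reads started from the other first exon seen, that of Ppara-206.

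Ppard, the gene of PPARdelta, a regulator of fatty acid use in oxidative fibres (chromosome 17, 28232700 to 28301474, plus strand), had 3 and 4 reads, or 2.47 and 2.58 CPM, all of them on single-exon models. One read per library lay on Ppard-208, an annotated transcript of 1 exon (28293246 to 28296971). The other 2 and 3 reads lay on a genomic model at the 3′ end, from 28300135 to 28301474. No spliced read of Ppard was seen, which at this depth allows up to 2.47 and 1.94 CPM of spliced transcript.

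Rxra, the broadly expressed partner of PPARs and thyroid hormone receptors (chromosome 2, 27676440 to 27762957, plus strand), had 67 and 49 reads, or 55.1 and 31.6 CPM. The log2 ratio was -0.78 ± 0.27 (Fisher exact adjusted p = 0.0108). With TMM scaling it was -0.50 (adjusted p = 0.127) and with DESeq2 scaling -0.47, and neither passed. The composition differed more than the sum. Full-length Rxra-201, with 10 exons, had 29 and 4 reads, and multi-exon reads numbered 35 and 5. Reads on a single-exon model of the 3′ end numbered 32 and 44. Those models ran from 27759541 to 27762957 in replicate 1, classed as an incomplete splice match, and from 27760183 to 27762957 in replicate 2, classed as genomic. Among multi-exon reads the log2 ratio was -2.72 (Fisher exact adjusted p = 5.65e-07), while the share of multi-exon reads was 52.2% in replicate 1 and 10.2% in replicate 2.

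Rxrg, the RXR most typical of skeletal muscle (chromosome 1, 167598384 to 167639623, plus strand), had 51 and 57 reads, or 41.9 and 36.8 CPM. The libraries overlapped, with a log2 ratio of -0.18 ± 0.28 and a Fisher exact adjusted p of 0.632. Multi-exon reads were 51 of 51 in replicate 1 and 49 of 57 in replicate 2, and the other 8 reads were a genomic model of 198 bases at the 3′ end. Annotated transcripts took 50 and 43 reads.

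Most Rxrg reads began at the internal first exon of Rxrg-202, which lies 19925 bases downstream of the first exon of Rxrg-201. The internal start had 36 reads in replicate 1 and 37 in replicate 2, against 15 and 10 from the upstream start. Its share was 70.6% (56.2% to 82.5%) and 78.7% (64.3% to 89.3%), a mean of 74.7 ± 5.75% (SD, n = 2). Both intervals lay above equal use and overlapped each other. Rxrg-202 was also the leading transcript of the gene, with 35 of 51 and 33 of 47 reads outside the incomplete and genomic classes (Fisher exact adjusted p = 1). A chain with exon 3 of Rxrg-202 lengthened by 26 bases at an unannotated acceptor had 1 read in replicate 1 and 2 in replicate 2.

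**Figure D4:**
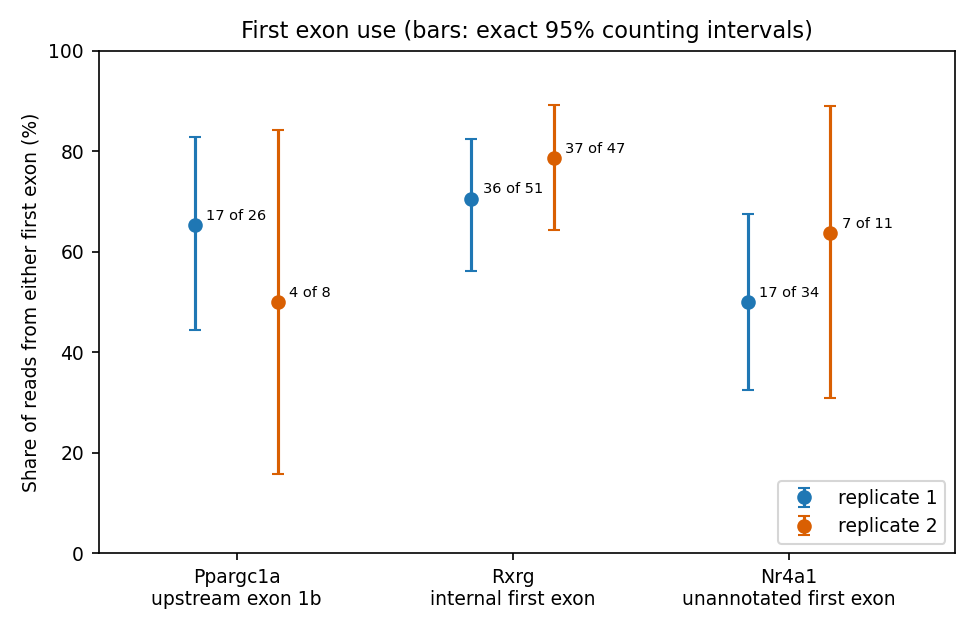
Share of reads from one of the pair of first exons in Ppargc1a, Rxrg and Nr4a1, per replicate, among reads that reached either; bars are exact 95% counting intervals and labels give the reads. The Rxrg intervals lie above 50%, and those of the other genes include it.

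The RefSeq windows at both Rxrg starts are set side by side because the gene split its reads between them (GRCm38.p6, chr1:167598112-167598411 and chr1:167618015-167618314, plus strand; capitals mark matches to the same motifs).
Rxrg upstream start: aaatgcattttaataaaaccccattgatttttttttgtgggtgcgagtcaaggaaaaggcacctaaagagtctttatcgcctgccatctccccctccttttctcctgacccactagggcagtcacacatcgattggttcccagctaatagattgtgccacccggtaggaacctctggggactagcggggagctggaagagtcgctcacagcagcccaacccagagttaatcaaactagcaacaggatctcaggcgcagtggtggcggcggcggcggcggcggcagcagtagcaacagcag
Rxrg internal start: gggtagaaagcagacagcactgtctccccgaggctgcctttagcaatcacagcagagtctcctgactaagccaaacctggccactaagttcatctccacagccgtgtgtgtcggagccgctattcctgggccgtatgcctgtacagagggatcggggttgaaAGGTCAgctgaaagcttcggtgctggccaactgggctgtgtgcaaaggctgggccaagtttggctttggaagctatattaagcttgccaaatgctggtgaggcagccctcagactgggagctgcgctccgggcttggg
The internal window held 1 match to AGGTCA, at -88 from its start, and the upstream window held none to any of the 6 motifs.

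Thra encodes the main thyroid hormone receptor of muscle and, by a different last exon, a form that does not bind the hormone (chromosome 11, 98740638 to 98769006, plus strand). It had 20 and 33 reads, or 16.5 and 21.3 CPM, with overlapping intervals, a log2 ratio of 0.35 ± 0.41 and a Fisher exact adjusted p of 0.541. Multi-exon reads numbered 14 and 11. Of the reads that crossed the alpha1 or alpha2 choice, 12 of 14 in replicate 1 and 11 of 11 in replicate 2 carried the alpha2-type splice, or 85.7% (57.2% to 98.2%) and 100% (71.5% to 100%). Alpha1 is the hormone-binding form, and 2 reads in replicate 1 and none in replicate 2 ran past the splice site into its last exon. The shares leave out reads that do not cross the choice. Among these were 5 single-exon reads in replicate 1 and 11 in replicate 2 between the 2 last exons. The form they came from was not tested, so the shares need not hold for all Thra transcripts. Within the alpha2 type, the acceptor of Thra-201 took 9 and 8 reads and that of Thra-203, 117 bases downstream, took 3 and 3. Thra-201 itself had 5 and 2 full-length reads, and an unannotated combination of annotated sites with 9 exons had 1 read in each library.

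Single-exon genomic models filled much of the space between these ends. Models that stop at 98767932, the annotated 3′ end of Nr1d1, 1 per library, held 5 and 11 reads and lay between the last exon of the alpha1 form and that of Thra-201. Single-exon reads were 6 of 20 in replicate 1 and 22 of 33 in replicate 2. In replicate 2, 3 reads lay on a Thra model wholly over Nr1d1 exons. As at Esrra, single-exon reads of the overlapping genes cannot be told apart where the use of strand is not stated.

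**Figure D5:**
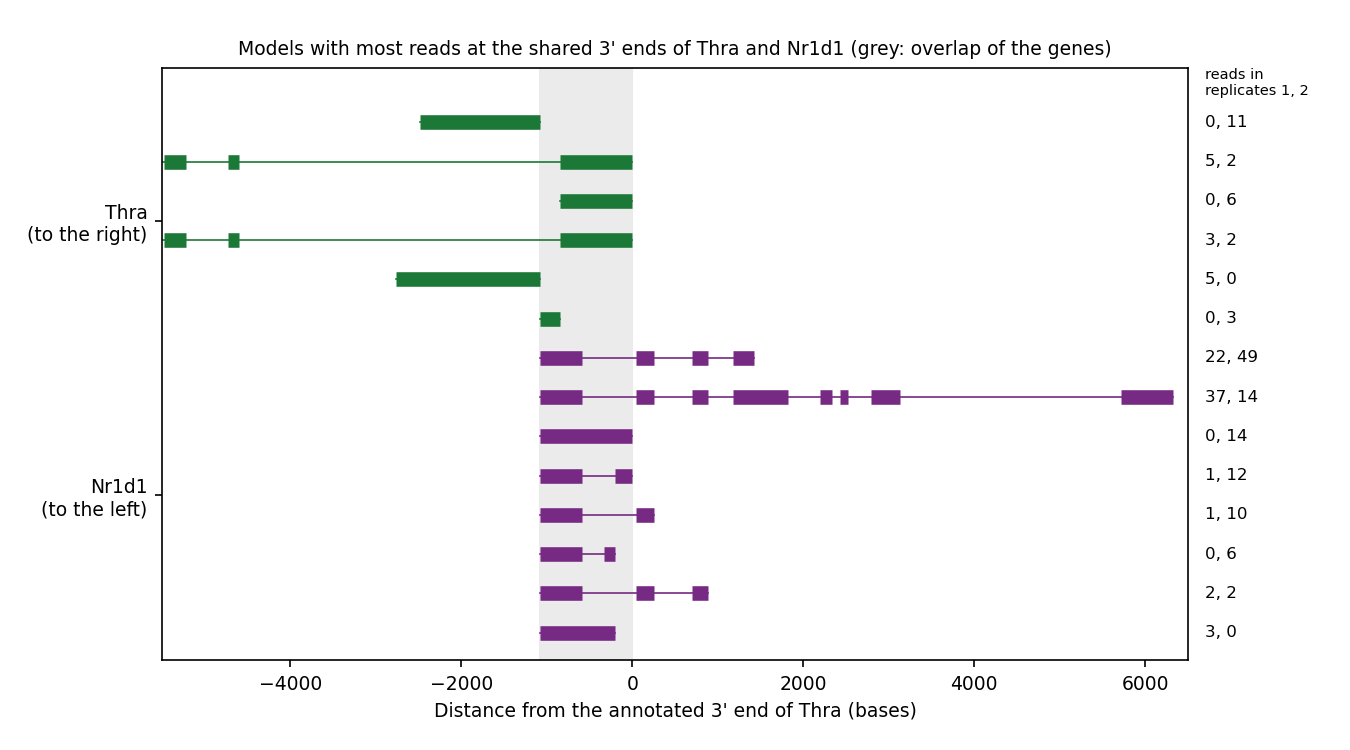
Exons (boxes) of the models with most reads of Thra (green, read to the right) and Nr1d1 (purple, read to the left), by distance in bases from the annotated 3′ end of Thra; the grey band is the overlap of the genes, lines are introns, and numbers at the right are reads in replicates 1 and 2. Models drawn to the plot's left edge run on beyond it, and several short Nr1d1 models lie inside the band.

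Nr1d1 (chromosome 11, 98767932 to 98775333, minus strand) meets Thra tail to tail, and the genes overlap by 1075 bases, of which 263 are shared by the last exons of Thra-201 and of the annotated full-length Nr1d1 transcript. Nr1d1 had 75 and 110 reads, or 61.7 and 71.0 CPM, with overlapping intervals. The log2 ratio was 0.20 ± 0.22 (Fisher exact adjusted p = 0.505), 0.49 with TMM scaling (adjusted p = 0.0541) and 0.51 with DESeq2 scaling, which passed. Multi-exon reads made up 96.0% and 87.3%. Reads on models that lay over Thra exons with 50% or more of their bases were 5 of 75 in replicate 1 and 33 of 110 in replicate 2. Without those models the levels were 57.6 and 49.7 CPM and the log2 ratio was -0.15 (adjusted p = 0.690), so the direction turned.

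The full-length annotated transcript of Nr1d1, with 8 exons, had 37 reads in replicate 1 and 14 in replicate 2. A chain of its last 4 exons had 22 and 49 reads and was the most read Nr1d1 model over both libraries. It began at 98770426, the start of a second, shorter annotated transcript inside the gene. Reads from the first exon of the full-length transcript were 50.7% (38.9% to 62.4%) of all Nr1d1 reads in replicate 1 and 12.7% (7.14% to 20.4%) in replicate 2. A first exon that M21 does not annotate, from 98772654 to 98772912, led a chain of 8 exons with 3 reads in replicate 1 and 0 in replicate 2.

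Nr1d1 was 1 of 4 members that could be tested for the share of the leading transcript, and the only one past the threshold. Outside the incomplete and genomic classes, the full-length transcript of Nr1d1 took 37 of 42 reads in replicate 1 (88.1%, 74.4% to 96.0%) and 14 of 33 in replicate 2 (42.4%, 25.5% to 60.8%), with a Fisher exact adjusted p of 0.00442 beside 1.53% of 4443 genes called. The other reads of replicate 2 were short chains of 2 exons at the overlap with Thra. The chain with its donor at 98768801 had 1 and 12 reads, that at 98768672 had 0 and 6, and that at 98768846 had 1 and 1. The first and last of these begin at 98769006, the annotated end of Thra. Each of these chains ended in the same last exon as the full-length Nr1d1 transcript, and the gene they came from was not tested. Without the models over exons of the opposite strand, the full-length transcript took 37 of 40 and 14 of 14 reads, and the adjusted p was 1.

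Nr4a1, the immediate early gene of NUR77, which responds to exercise and adrenergic signals (chromosome 15, 101254269 to 101274795, plus strand), had 42 and 21 reads, or 34.5 and 13.6 CPM. The intervals did not overlap, and the log2 ratio was -1.29 ± 0.39 (Fisher exact adjusted p = 0.00133). With TMM scaling it was -1.01 (adjusted p = 0.0161). Multi-exon reads numbered 35 and 11, and reads on a single-exon model of 800 bases at the 3′ end numbered 5 and 8.

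At least as many reads of Nr4a1 began at an exon that is not an annotated first exon as at the annotated one. The annotated 7-exon transcript that starts at 101266846 had 17 reads in replicate 1 and 4 in replicate 2. A chain of 7 exons that begins 6173 bases upstream of it, with its first exon at 101260673 to 101260839, had 17 and 7 reads. Its donor site is not that of a first or internal exon of any multi-exon M21 transcript of the gene. Single-exon models of the same span added 2 reads in each library. They were classed as incomplete splice matches, the class for parts of an annotated chain, and the annotated gene begins further upstream, at 101254269. The span itself may therefore be annotated in another role. The share of this upstream exon among reads from either start was 50% (32.4% to 67.6%) and 63.6% (30.8% to 89.1%), a mean of 56.8 ± 9.64% (SD, n = 2). The intervals overlapped and both included equal use. Counted over annotated transcripts only, the share is 0% by construction. The reads passed from this exon into the same second exon, which the annotated transcript joins as follows (30 bases, capitals from exon 2).
Nr4a1, annotated exon 1 to exon 2: gtgggagccggctggAGATGCCCTGTATTC

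The RefSeq window of the annotated Nr4a1 start (GRCm38.p6, chr15:101266596-101266895, plus strand) is shown as that of a gene whose induction through cyclic AMP is well known.
Nr4a1 window: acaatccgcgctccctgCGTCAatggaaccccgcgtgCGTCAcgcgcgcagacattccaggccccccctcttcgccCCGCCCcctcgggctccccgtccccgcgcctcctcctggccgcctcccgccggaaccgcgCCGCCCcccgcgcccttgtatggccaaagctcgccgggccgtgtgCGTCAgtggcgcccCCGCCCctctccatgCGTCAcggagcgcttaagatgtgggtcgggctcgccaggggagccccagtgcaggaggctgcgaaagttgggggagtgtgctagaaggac
TGACG was matched 4 times, on the opposite strand, at -233, -213, -69 and -40 from the start, and GGGCGG 3 times. The Ppargc1a, Ppara and Ppard windows each held 1 match to TGACG, and the Esrra, Nr1d1, Rxra and Rxrg windows none.

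The 7 lists of partner and target genes set the members in context. Among other nuclear receptors, 2 of 16 tested were higher in replicate 2 and 4 lower, with a median log2 ratio of -0.55 beside -0.27 over all genes. The most read was Nr2f6, an orphan receptor, at 79.8 and 276 CPM, higher by 1.78 (log2). By multi-exon reads it was lower (-0.67), near the median of -0.49 over all genes by such reads. Rxrb, the third RXR gene, had 51.0 and 34.2 CPM and did not pass (adjusted p = 0.0808), whereas Rora at 50.2 and 23.2 CPM was lower by 1.08.

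Among coactivators and corepressors 8 of 18 were lower, 0 higher and 10 did not pass, with a median of -1.24. Perm1, a muscle regulator that acts with PGC-1 and ERR, had 83.1 and 105 CPM and did not pass by all reads (adjusted p = 0.122), although it was lower by multi-exon reads (-1.38). Lpin1, which also coactivates PPARalpha, had 141 and 29.7 CPM and was lower. Carm1, an arginine methyltransferase, had 97.9 and 33.6 CPM, and Ncoa4 65.0 and 21.3 CPM, both lower. Of the genes for mitochondrial transcription and biogenesis, 3 of 11 were higher, 4 lower and 4 did not pass (median -0.88). Cycs, cytochrome c, had 626 and 1340 CPM and was higher, while Lrpprc, which stabilises mitochondrial mRNA, had 136 and 24.5 CPM and was lower. Twnk, the mitochondrial helicase, had 30.4 and 71.6 CPM, higher by all reads but not past the threshold by multi-exon reads (-0.65), and Tefm had 18.9 and 36.1 CPM, higher by both.

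Of 20 PPAR target genes, 5 were higher, 9 lower and 6 did not pass (median -0.47). Fabp3, the muscle fatty acid binding protein, had 1188 and 2765 CPM and was higher. Pdk4, which inhibits pyruvate dehydrogenase, had 1525 and 518 CPM and was lower. Hadhb (540 and 384 CPM) and Acadvl (495 and 365 CPM), enzymes of beta-oxidation, were lower. Of 8 thyroid hormone genes tested, 1 was higher, 5 lower and 2 did not pass (median -1.0). Atp2a1, the fast calcium pump, had 151516 and 23536 CPM, Me1 257 and 121, Slc2a4, the insulin-regulated glucose transporter, 249 and 119, and Klf9 174 and 90.3, all lower.

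Of 10 clock genes tested, 6 were lower, 0 higher and 4 did not pass (median -0.89). The 4 most read were all lower: Tef (139 and 56.8 CPM), Nfil3 (87.2 and 49.0 CPM), Bhlhe40 (49.4 and 25.2 CPM) and Arntl (30.4 and 14.2 CPM), the BMAL1 gene that REV-ERBalpha represses. Of 10 immediate early genes, 5 were lower, 1 higher and 4 did not pass (median -0.61). Jund had 188 and 135 CPM, Dusp1 66.6 and 41.3 and Jun 46.9 and 20.0, all lower, and Ier2 at 19.7 and 13.6 CPM did not pass. These lists are described by counts and medians only, without a test of the list.

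Across the 10 genes, 25 of 70 multi-exon chains were seen in both libraries, 9 of them annotated and 16 not. Another 36 chains rested on 1 read in 1 library. These chain counts were not computed over all genes, so whether the members differ from other genes in this was not tested. Over all genes, most transcript models of each library, single-exon models included, rested on 1 read. Reads from an annotated first exon ranged widely between genes. They were 51 of 51 and 47 of 57 for Rxrg, and 21 of 41 and 7 of 20 for Ppargc1a. For Nr4a1 they were 17 of 42 and 4 of 21, and for Rxra 29 of 67 and 4 of 49. The share was lower in replicate 2 in every gene but Ppard, which had no such read in either library. In replicate 2 it rests on 1 read for Ppara and on 9 for Ppargc1b, and for Esrra it counts the 3003 reads over Trmt112. It was not computed over all genes. Over all genes, incomplete and genomic models took 11.6% of reads in replicate 1 and 22.5% in replicate 2.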

How the data were processed

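Long-read RNA of 2 gastrocnemius libraries was analysed from the deposited tables. Per the labels and the text deposited with each library, the authors aligned reads to mm10 and assigned them to GENCODE M21 transcripts or to unannotated models. The deposited values are raw whole read counts per transcript model, not normalised, 1 table per library, with model coordinates counted from 1 in the deposited TALON annotation. The aligner, read filters and use of strand are not stated in the labels or file headers.

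Gene counts are sums over every transcript class, spike-ins left out. Total counts were 1292409 and 1703457. A gene entered the library comparison with a sum of at least 10 reads, tested by Fisher's exact test (two-sided, scipy 1.17.1) of its reads against all others, with Benjamini-Hochberg adjustment over all genes. Log2 ratios are of CPM + 1, replicate 2 over replicate 1. With 1 library against 1 no residual degrees of freedom are left for edgeR's quasi-likelihood test, so edgeR 4.0.16 gave TMM scaling and exact tests with a fixed coefficient of variation, and DESeq2 1.42.0 gave size factors. Ratios restricted to some models were scaled to the reads left. The share of the leading transcript was tested the same way wherever each library had at least 10 reads that were neither incomplete nor genomic. Models were matched between libraries by exact intron chain. A first exon was read from the donor site of the first intron. Intervals are exact 95% Clopper-Pearson intervals, and where no read was seen the limit on the level is that of 3 counts. Reads without molecular identifiers are not independent molecules, so intervals and tests cover counting error only. The methods were tested on simulated data.

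The text names all 10 members, the 4 genes of each list with most reads, and for each member the leading model, annotated transcripts with 3 or more reads and unannotated chains, neither incomplete nor genomic in class, in both libraries or with 3 or more reads in 1. One gene that meets this rule is not reported here. Other models named were chosen after their values were seen. Members and lists were chosen with earlier results of these data known. Counts on multi-exon models, without opposite-strand models, and with chain classes pooled between libraries were added after seeing the data. Junction sequences come from GENCODE M21 and start windows from RefSeq (GRCm38.p6).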

Additional observations from a re-analysis of the deposited data

Results flagged for a closer look

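Reads outside the members' own counts lay on unannotated antisense models over 3 of the genes, above the limit that a count of 0 allows (3 counts) in both libraries. Opposite Ppargc1a there were 28 such reads in replicate 1 and 20 in replicate 2, beside 41 and 20 on the gene itself. The most read antisense model had 8 reads in each library and ended at 51534528 in both, starting at 51530118 in replicate 1 and 51531703 in replicate 2. Of these reads 3 in replicate 1 and 0 in replicate 2 were spliced. Opposite Ppargc1b there were 5 and 6 reads. Opposite Ppard there were 5 and 5 reads, of which a single-exon model near the 5′ end of the gene took 3 (28233440 to 28234059) and 5 (28233438 to 28234058). The strand of these reads rests on the authors' assignment, and no control library is present.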

How the results depend on the processing

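Esrra changed sign with the reads counted: its log2 ratio was -1.57 over annotated transcripts, -1.11 without incomplete and genomic models, -0.94 over multi-exon models and -1.02 without models over opposite-strand exons. Under each of these 4 settings no member was higher (0), under DESeq2 scaling 2 were, and with a coefficient of variation of 0.4 none (0). With coefficients of variation of 0.2 and 0.4, 1345 and 8 genes were called in place of 3766, and 0 members were lower under either. The share of first exon reads moved over annotated transcripts only, to 15% for Ppargc1a exon 1b and 0% for the Nr4a1 exon. With all classes counted, 1364 genes and 3 members were called for the leading transcript, and without opposite-strand models 0 members. For single genes, 4 alternatives reversed a result, 11 took it below the threshold and 2 above it, 22 moved a level by more than the spread of the libraries, and 140 did neither. Leaving out either library left the other library's value, given in the report. No paired analysis was possible because the series has 1 group. Depth limits Ppara, Ppard and Ppargc1b, which had 9 reads or fewer per library.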
